A study of Mus musculus with 15 samples.

Results

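The comparison described here is between 3T3-L1 cells labelled as overexpressing MIGA2-GFP and wild-type (WT) 3T3-L1 cells, both harvested 6 days into adipogenic differentiation. It rests on the 3 libraries titled MIGA2-GFP and the 3 titled WT at day 6, chosen by title from the 15 RNA-seq libraries of the study, and on all genes with enough counts. 3T3-L1 is an established line of mouse preadipocytes, fibroblast-like cells that turn into lipid-storing fat cells on hormonal induction. Both groups stood at confluence for 48 h, were induced with insulin (1 µg/mL), dexamethasone (1 µM) and IBMX (0.5 mM), were moved to insulin alone at day 2 and to plain medium at day 4. The remaining 9 libraries are WT at day 0 and cells labelled MIGA2-KO at days 0 and 6, and their levels are given only as reference points. The labels give neither the promoter nor the species of the MIGA2-GFP construct, nor whether the line is 1 clone, and MIGA2-GFP cells at day 0 are not analysed here. Whether the replicates came from separate cultures is not stated either, and p-values then reflect only the spread between these libraries.

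MIGA2, mitoguardin 2, sits in the outer membrane of mitochondria, where it binds VAP proteins of the endoplasmic reticulum (ER) and also reaches lipid droplets. Such contacts let lipids pass between organelles. A fat cell makes fatty acids from glucose-derived carbon exported by mitochondria as citrate, joins them to glycerol in the ER, and stores the triacylglycerol in droplets. The comparison asks how the transcriptome of the differentiated cell differs where the line is labelled as carrying more of this protein.

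Library totals were 12119331, 13443736 and 10748668 counts for MIGA2-GFP and 12139151 to 12355905 for WT. The MIGA2-GFP libraries were close to each other, with a biological coefficient of variation of 2.95% against 21.2% among the WT libraries. WT replicate 1 stood apart from the other 2: its log2 levels correlated with theirs at 0.975 and 0.969, while those 2 correlated at 0.986. Differences between the groups ran with transcript length. With genes split by transcript length into 5 equal bins, in the shortest bin (median 1400 bases) the median log2 difference from WT replicates 1, 2 and 3 was -0.05, -0.44 and -0.48. In the longest bin (median 6750 bases) it was 0.06, 0.41 and 0.44. What gave rise to the trend was not tested. Lists of short genes are therefore given also without WT replicate 1 and with offsets for GC content and length. The fit borrows its estimate of spread from all 15 libraries, including a MIGA2-KO day 6 library (replicate 1) that differed from the others of its group, so values from a fit on the 6 libraries alone are given where they change a call.

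**Figure D1:**
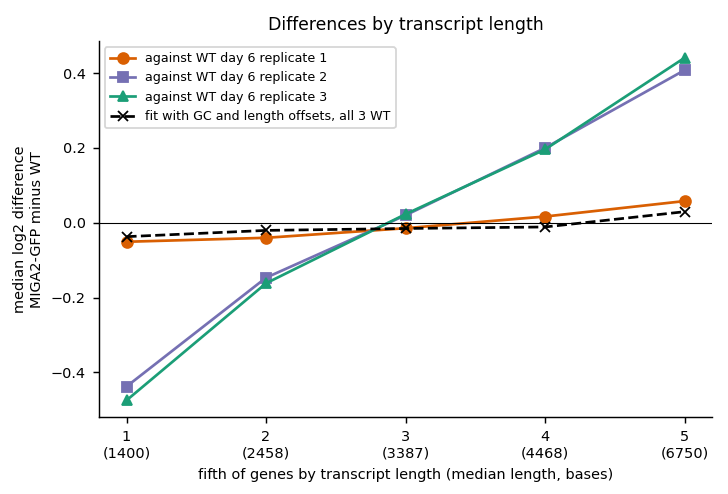
Median log2 difference (y axis) between the 3 libraries labelled MIGA2-GFP and each WT day 6 library, for 5 equal bins of genes by transcript length (x axis, median length in bases). Against WT replicates 2 and 3 the median rises from -0.44 and -0.48 to 0.41 and 0.44, against replicate 1 it moves from -0.05 to 0.06, and the fit with offsets is near 0 throughout.

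Miga2 itself (ENSMUSG00000026858, chromosome 2, 30364233 to 30385521, GRCm38) was not higher in the libraries labelled MIGA2-GFP. They held 166, 155 and 159 CPM (counts scaled to a common library size), and the WT libraries held 145, 160 and 182 CPM. The groups overlapped, and the log2 fold change was -0.02 ± 0.67 (SE from the edgeR quasi-likelihood test, adjusted p = 0.985). Fitted on the 6 libraries alone it was -0.03 (adjusted p = 0.867). The targeted gene thus does not bear out the label, and since the sequence of the construct is not given, whether its reads would be counted under the mouse gene is not known. From here on, "the labelled libraries" are the 3 libraries labelled MIGA2-GFP, and a direction is always theirs against WT at day 6. In the MIGA2-KO group of day 6, Miga2 was at 926, 74.5 and 70.0 CPM, and WT at day 0 had 15.6, 17.8 and 13.6 CPM.

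Its paralog Miga1, the other mitoguardin, was higher. The level was 4.44, 5.65 and 4.67 CPM in the labelled libraries and 1.72, 0.68 and 1.26 CPM in WT, a log2 fold change of 2.00 ± 0.37 (adjusted p = 0.00111). The groups did not overlap, although both lie far below Miga2 in CPM, which does not correct for transcript length. The sources used here do not give how reads shared by near-identical genes were counted, so values of gene families below carry that limit.

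Of 12279 genes tested, 2020 (16.5%) were higher and 2318 (18.9%) lower in the labelled libraries at an adjusted p under 0.05, together 35.3%. Counts of list members below stand beside these shares, and a count near them says nothing particular about a list. The called changes were mostly modest: the median was 0.70 among genes higher and -0.69 among genes lower, and 459 and 554 genes respectively changed by 2-fold or more. Falls of 4-fold or more were more numerous than such rises (146 against 62). The 3 labelled libraries lay above all 3 WT libraries for 25.2% of genes and below all 3 for 25.1%. Most genes named from lists were chosen by small adjusted p. Where groups are said below not to overlap, this describes values and is no separate evidence.

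Several of the largest rises were in genes of the cell surface, basement membrane and contractile apparatus. Lama5, a laminin chain of basement membranes, was at 33.5, 32.0 and 30.6 CPM in the labelled libraries and at 2.08, 2.14 and 3.59 CPM in WT, a log2 fold change of 3.62 ± 0.47 (adjusted p = 8.61e-05). Cdsn, corneodesmosin, an adhesion protein best known from skin, was at 316, 302 and 322 CPM against 50.1, 59.3 and 49.6 CPM (2.56 ± 0.56, adjusted p = 0.00321). Lmod1, leiomodin of smooth muscle, which nucleates actin filaments, rose from 3.98, 5.65 and 4.56 to 22.6, 21.3 and 22.4 CPM (2.22 ± 0.18, adjusted p = 3.83e-06). Groups that do not overlap were a condition for choosing the 12 largest rises. Thbs1, the matricellular protein thrombospondin 1, was at 69.9, 70.2 and 68.7 CPM against 23.2, 13.3 and 14.9 CPM (2.02 ± 0.34, adjusted p = 0.000553). The other members of the 12 largest rises were Plekha6 (2.96), the synaptic adhesion gene Nrxn2 (2.37), the bicarbonate transporter Slc4a4 (2.186), the matrix protein Fbln1 (2.18), the stress ligand Ulbp1 (2.15), the calcium pump Atp2a3 (2.12), smooth muscle actin Acta2 (2.12) and the calcitonin receptor-like gene Calcrl (2.04), all as log2 fold changes with an adjusted p between 0.000169 and 0.0224 apart from Plekha6 and Nrxn2 (both 2.55e-05).

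The largest falls included secreted and surface genes that were clearly present in WT and close to nothing in the labelled libraries. Upk2, a uroplakin, fell from 15.5, 20.2 and 25.9 to 0.26, 0.46 and 0.38 CPM (log2 fold change -5.77 ± 0.37, adjusted p = 5.24e-06). Retnla, a resistin-like secreted protein, went from 20.8, 31.0 and 24.3 to 0.34, 0.99 and 0.29 CPM (-5.48 ± 0.35, adjusted p = 1.48e-06). Rdh12, a retinol dehydrogenase, was at 74.6, 91.0 and 74.8 CPM in WT and at 8.03, 7.25 and 8.28 CPM in the labelled libraries (-3.35 ± 0.18, adjusted p = 1.87e-07). Groups apart were a condition for choosing the largest falls too, so the lack of overlap is no added result. The zinc importer Slc39a4 (-5.39), the interferon-inducible Ifi208 (-4.65), the medium-chain acyl-CoA synthetase Acsm4 (-4.24), the BMP antagonist Nbl1 (-4.19), the decoy receptor Il1r2 (-3.81), the leukocyte tetraspanin Cd53 (-3.45), the small GTPase Arl4d (-3.30), transferrin Trf (-3.27) and the aldehyde dehydrogenase Aldh3a1 (-3.19) made up the 12 largest. Mest, an imprinted gene expressed in growing fat tissue, had 0 counts in the labelled libraries and 112 in WT, at least 41.7-fold lower taking 3 counts in the whole group as the floor, which covers counting error only.

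**Figure D2:**
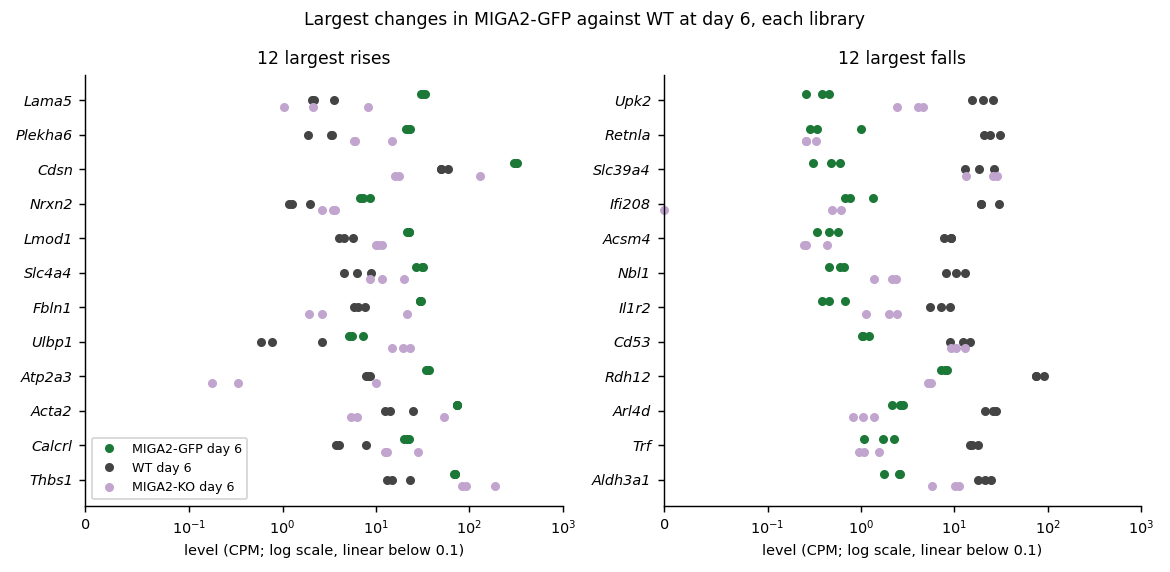
CPM (x axis, log scale, linear below 0.1) of the 12 genes with the largest rises (left) and falls (right) in each labelled library (green), WT day 6 library (dark grey) and MIGA2-KO day 6 library (lilac). The green and dark grey points are apart for every gene, which was a condition of the choice. Lama5, for example, is at 30.6 to 33.5 against 2.08 to 3.59 CPM. In Acta2, Cdsn, Fbln1 and Atp2a3 1 MIGA2-KO library lies far above its other 2.

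For 4 of the large rises the MIGA2-KO library that stood apart widened the estimate of spread. Acta2 had 53.9, 5.44 and 6.27 CPM in the MIGA2-KO day 6 group, and its adjusted p was 0.0151 in the fit on 15 libraries and 0.000782 in the fit on 6. Cdsn (0.00321 and 2.38e-05), Fbln1 (0.0103 and 9.9e-05) and Atp2a3 (0.0224 and 6.81e-05) showed the same order of adjusted p.

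The cells of both groups carried the marks of fat cells. The 6 libraries held 42377 to 76654 CPM summed over 26 adipocyte markers and adipokines, against 1919 to 2099 CPM in WT at day 0. Within that list 11 of 24 tested genes were lower in the labelled libraries and 2 were higher, with a median log2 fold change of -0.46 against 0.00 over all genes. Fewer fat cells in the culture and less of these mRNAs per fat cell cannot be told apart in such bulk samples. Adiponectin (Adipoq), an insulin-sensitizing adipokine, was at 2562, 2542 and 2455 CPM against 5824, 7016 and 7422 CPM in WT (-1.42 ± 0.18, adjusted p = 6.88e-05). Agt, angiotensinogen, was at 3300, 3176 and 3114 against 6327, 9310 and 10284 CPM (-1.43 ± 0.20, adjusted p = 0.000141). The labelled libraries thus held less than any WT library for both, although WT at day 0 had almost no Adipoq (0, 0.07 and 0 CPM).

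Leptin (Lep), the satiety hormone of fat, was at 0.09, 0.15 and 0.10 CPM in the labelled libraries and at 3.62, 5.07 and 3.49 CPM in WT (-5.06 ± 0.50, adjusted p = 2.55e-05). Resistin (Retn), Cyp2e1 and carbonic anhydrase Car3, singled out after their values were seen, also fell, by 1.81 ± 0.42, 2.46 ± 0.38 and 4.68 ± 0.68 on the log2 scale (adjusted p = 0.00792, 0.000819 and 0.000358). Against this direction, the peptide hormone apelin (Apln), singled out in the same way as Fgf21 and Cfd below, rose from 27.5, 23.8 and 25.6 to 76.1, 72.1 and 79.6 CPM (1.57 ± 0.22, adjusted p = 0.000156). The hepatokine and adipokine Fgf21 was called higher at 1.28, 0.61 and 1.62 CPM against 0.09, 0 and 0 CPM, a few counts per library (adjusted p = 0.0187). Adipsin (Cfd) did not pass, at 5905, 5356 and 5288 against 5302, 9901 and 13649 CPM (-0.80 ± 0.35, adjusted p = 0.102), and without WT replicate 1 it did (-1.11, adjusted p = 0.0137).

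Of 29 regulators of adipogenesis 6 were higher and 6 lower, near the shares of 16.5% and 18.9% over all genes. Pparg, the nuclear receptor at the centre of the programme, was at 181, 193 and 194 CPM in the labelled libraries and at 294, 296 and 295 CPM in WT (-0.64 ± 0.08, adjusted p = 7.82e-05), and Cebpa, its partner, named after its values were seen, went down by 0.88 ± 0.19 (adjusted p = 0.00263). Klf5, an early activator, was at 9.14, 10.3 and 8.85 against 21.7, 26.5 and 24.1 CPM (-1.35 ± 0.16, adjusted p = 5.83e-05). For all 3 activators the labelled libraries lay below the WT libraries. Among the inhibitors, Dlk1, which marks preadipocytes, was at 174, 160 and 171 CPM against 259, 333 and 427 CPM (-1.01 ± 0.20, adjusted p = 0.00172), and Gata2 was lower by 1.34 ± 0.23 on the log2 scale (adjusted p = 0.000737). Of 19 activators 3 were higher and 4 lower, and of 10 inhibitors 3 were higher and 2 lower.

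**Figure D3:**
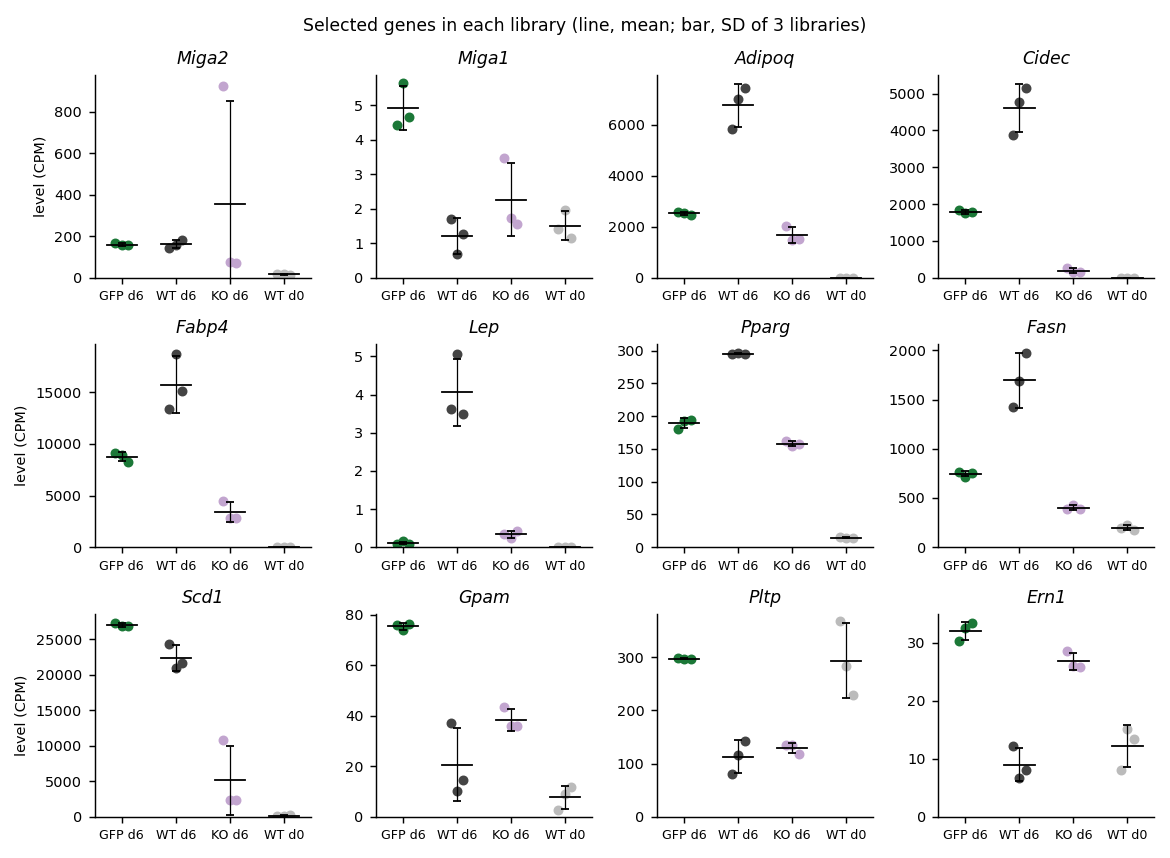
CPM (y axis, linear from 0) of 12 genes in each library labelled MIGA2-GFP, WT or MIGA2-KO at day 6 and WT at day 0, with the mean and SD of 3 libraries. Adipoq, Cidec, Fabp4, Lep, Pparg and Fasn are lower in the MIGA2-GFP than in the WT libraries of day 6, Miga1, Gpam, Pltp and Ern1 are higher, and Miga2 overlaps.

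Of 18 tested preadipocyte and fibroblast markers 6 were lower and 1 was higher, beside 18.9% and 16.5% of all genes. Their median was -0.32. Thy1, a surface protein of fibroblasts, was at 41.2, 43.0 and 42.2 CPM against 109, 138 and 120 CPM (-1.54 ± 0.14, adjusted p = 5.92e-06), and Cd24a and Pi16 fell by 1.47 ± 0.13 and 1.72 ± 0.24 (adjusted p = 4.52e-06 and 0.000149). Pdgfrb, the receptor for platelet-derived growth factor B, was the 1 called higher, at 121, 119 and 121 against 84.1, 78.4 and 73.5 CPM (0.61 ± 0.09, adjusted p = 0.000234). Summed over the list, the labelled libraries held 3887 to 3917 CPM, WT at day 6 held 4758 to 5442 CPM and WT at day 0 held 9734 to 13013 CPM.

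Of 32 tested genes of fatty acid synthesis 9 were lower and 5 higher, beside 18.9% and 16.5% of all genes. Fasn, fatty acid synthase, was at 765, 717 and 752 CPM against 1421, 1686 and 1973 CPM in WT (-1.19 ± 0.12, adjusted p = 1.7e-05). G6pdx, which supplies NADPH for synthesis, was at 134, 141 and 147 against 387, 389 and 344 CPM (-1.41 ± 0.11, adjusted p = 2.35e-06), and the elongase Elovl1 fell by 1.40 ± 0.12 (adjusted p = 5.24e-06). Acly and Acaca, the cytosolic enzymes just before Fasn and named after their values were seen, were lower by 0.90 ± 0.12 and 0.77 ± 0.17 (adjusted p = 0.000146 and 0.00351). The 3 enzymes that run from citrate to palmitate in the cytosol were thus among the genes called lower. Acacb, the acetyl-CoA carboxylase at mitochondria, also named after its values were seen and whose product restrains fatty acid oxidation, was higher (1.07 ± 0.21, adjusted p = 0.00154).

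The desaturases did not follow them. Scd1, the stearoyl-CoA desaturase, had the highest mean level of all genes in the labelled libraries, at 27278, 26925 and 26879 CPM against 24383, 21008 and 21677 CPM in WT, and did not pass (0.27 ± 0.41, adjusted p = 0.63). The groups did not overlap, and the fit on 6 libraries gave an adjusted p of 0.0683. Fads2, the delta-6 desaturase of polyunsaturated fatty acids, was higher at 107, 106 and 104 against 49.6, 34.1 and 38.2 CPM (1.38 ± 0.16, adjusted p = 5.6e-05). Summed over the list of fatty acid synthesis genes the labelled libraries held 40523 to 41094 CPM and WT 33801 to 36811 CPM, sums in which Scd1 was the largest term.

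Of 20 genes of triacylglycerol synthesis 4 were higher and 2 lower, beside 16.5% and 18.9% of all genes. Gpam, the mitochondrial acyltransferase that takes the first step, was at 75.7, 73.9 and 76.5 CPM in the labelled libraries and at 37.1, 10.1 and 14.7 CPM in WT (1.87 ± 0.43, adjusted p = 0.00453). WT replicate 1 was the nearest, and without it the value was 2.58 (adjusted p = 0.000268). Agpat1, the acyltransferase of the next step, rose by 0.58 ± 0.12 (adjusted p = 0.00308) and the phosphatase Lpin3 by 0.77 ± 0.17 (adjusted p = 0.00338). Pcx, pyruvate carboxylase, which feeds glycerol and citrate production, was lower at 1866, 1778 and 1762 against 2425, 2907 and 3383 CPM (-0.69 ± 0.12, adjusted p = 0.00064). The final acyltransferases did not pass: Dgat1 was at -0.09 ± 0.15 (adjusted p = 0.676) and Dgat2 at 0.13 ± 0.58 (adjusted p = 0.879), both singled out after their values were seen.

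Among proteins that carry fatty acids into and within the cell, 5 of 16 were lower and 3 higher, beside 18.9% and 16.5% of all genes. Fabp4, the fatty acid chaperone of adipocytes, was at 9114, 8870 and 8253 CPM against 13401, 18710.0 and 15077 CPM (-0.85 ± 0.21, adjusted p = 0.0066). Its relative Fabp5 (-1.15 ± 0.13, adjusted p = 4.68e-05) and the acyl-CoA binding protein Dbi (-1.29 ± 0.22, adjusted p = 0.000688) fell as well. Lpl, lipoprotein lipase, was at 8890, 9118 and 8648 against 12329, 13027 and 12561 CPM (-0.51 ± 0.15, adjusted p = 0.0175). All 4 had WT libraries above every labelled one. The acyl-CoA synthetase Acsl4 was higher (0.94 ± 0.21, adjusted p = 0.00409).

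On the droplet itself, 4 of 20 genes were lower and 2 higher, beside 18.9% and 16.5% of all genes. The median log2 fold change was 0.06. Cidec, which fuses droplets into the single large one of white fat, was at 1846, 1753 and 1775 CPM against 3881, 4779 and 5148 CPM (-1.36 ± 0.21, adjusted p = 0.000512), and was at 268, 152 and 146 CPM in the MIGA2-KO day 6 group. Cavin1, a caveolar coat protein, fell by 0.68 ± 0.11 (adjusted p = 0.000471). Cideb, a relative of Cidec, rose from 0.90, 1.56 and 0.87 to 2.82, 3.36 and 3.14 CPM (1.48 ± 0.28, adjusted p = 0.00143), and Rab18, a GTPase of droplets and ER, rose by 0.74 ± 0.14 (adjusted p = 0.00127). The coat protein perilipin 1 (Plin1), singled out after its values were seen, did not pass at 884, 829 and 874 against 528, 501 and 642 CPM (0.63 ± 0.24, adjusted p = 0.0562). It passed in the fit on 6 libraries (adjusted p = 0.00538).

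Lipolysis genes gave 4 lower and 3 higher of 22, beside 18.9% and 16.5% of all genes. Abhd5, the coactivator of adipose triglyceride lipase, was at 228, 232 and 237 CPM against 428, 481 and 465 CPM (-0.98 ± 0.09, adjusted p = 5.92e-06), and the lipase itself, Pnpla2, singled out after its value was seen, fell by 0.60 ± 0.18 (adjusted p = 0.0176). Hormone-sensitive lipase (Lipe), singled out likewise, was at -0.06 ± 0.18 (adjusted p = 0.806). The lysosomal lipase Lipa went up from 218, 190 and 180 to 308, 302 and 312 CPM (0.65 ± 0.13, adjusted p = 0.00197). This list depended on the estimate of spread more than most, with 9 higher and 5 lower in the fit on 6 libraries, where 17.2% and 19.6% of genes were called higher and lower (36.8% in all).

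Of 20 enzymes of cholesterol synthesis 5 were lower and 3 higher, near the shares over all genes. Pmvk, of the mevalonate steps, was at 67.0, 64.4 and 64.8 CPM against 154, 230 and 251 CPM (-1.70 ± 0.21, adjusted p = 6.72e-05), and Mvd and Nsdhl fell by 1.27 ± 0.18 and 0.97 ± 0.10 (adjusted p = 0.000203 and 1.01e-05). The regulator Srebf2, which switches this pathway on when sterol is short, was higher at 174, 166 and 176 against 91.2, 96.4 and 113 CPM (0.78 ± 0.12, adjusted p = 0.000257). Of 12 tested efflux genes and LXR targets, 5 were higher and 0 lower, beside 16.5% and 18.9% of all genes. Pltp, the phospholipid transfer protein, was at 299, 296 and 298 CPM against 80.6, 116 and 143 CPM (1.40 ± 0.18, adjusted p = 9.84e-05). Soat1, which esterifies cholesterol, rose by 0.98 ± 0.13 (adjusted p = 9.84e-05), the exporter Abcg1 by 0.50 ± 0.13 (adjusted p = 0.00869) and Mylip, which degrades the LDL receptor, by 0.47 ± 0.13 (adjusted p = 0.014). Of these, Abcg1 did not pass with offsets for GC content and length (adjusted p = 0.0858), and without WT replicate 1 the list had 5 higher and 3 lower.

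Nuclear genes of mitochondrial oxidation were lower as a list. Of 27 tested genes of fatty acid oxidation, 16 were lower and 1 was higher, the same counts as with offsets for GC content and length. Acadm, the medium-chain dehydrogenase, was at 528, 547 and 513 CPM against 790, 740 and 770 CPM (-0.53 ± 0.08, adjusted p = 0.000285). Etfa, which passes the electrons on, fell by 0.61 ± 0.09 (adjusted p = 0.000301) and Acat1, a thiolase, by 0.80 ± 0.10 (adjusted p = 5.86e-05). In the TCA cycle and pyruvate entry 15 of 25 were lower and 0 higher. Fumarase (Fh1) was at 166, 171 and 175 CPM against 291, 331 and 326 CPM (-0.89 ± 0.11, adjusted p = 5.44e-05), and Idh3b and Idh3g, subunits of isocitrate dehydrogenase, fell by 0.71 ± 0.11 and 0.75 ± 0.12 (adjusted p = 0.000267 and 0.000438). With the offsets the TCA list gave 11 lower and 4 higher.

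Breakdown of branched-chain amino acids, which supplies carbon for lipid in fat cells, was the metabolic list with the largest share of genes called. Of 21 genes 14 were lower and 4 higher, and with the offsets 13 and 3. Ivd was at 210, 211 and 216 CPM against 337, 355 and 352 CPM (-0.71 ± 0.09, adjusted p = 7.77e-05). Bckdhb, of the rate-setting dehydrogenase complex, fell by 0.84 ± 0.11 (adjusted p = 8.72e-05), Hibadh by 0.68 ± 0.08 (adjusted p = 6.72e-05) and Auh by 0.78 ± 0.11 (adjusted p = 0.000141). Each of these 4 had all labelled libraries below all WT libraries.

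**Figure D4:**
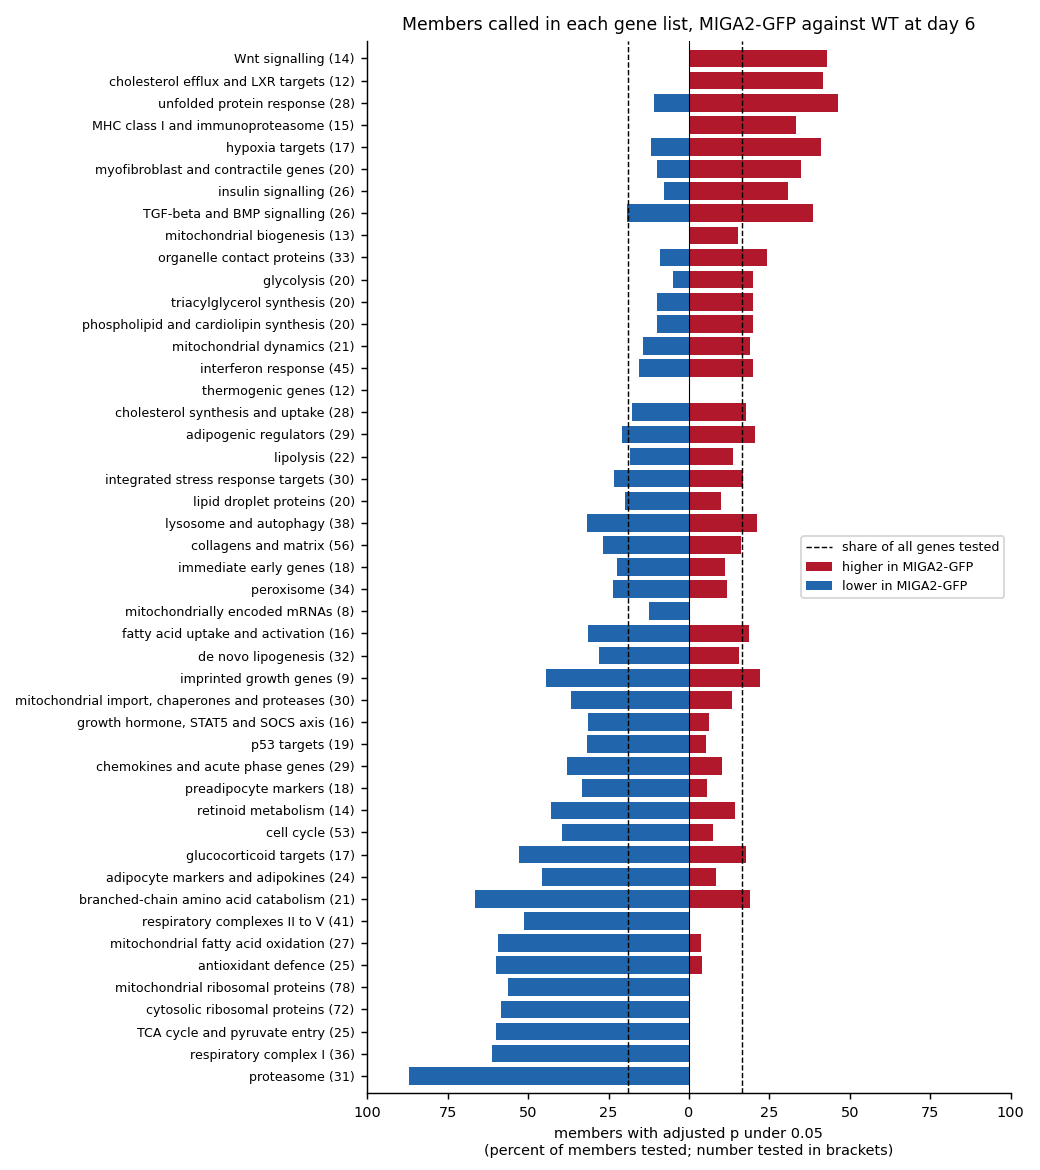
Percent of the tested members of each gene list called higher (right, red) or lower (left, blue) at an adjusted p under 0.05, with the number tested in brackets and the shares over all genes tested, 16.5% and 18.9%, as dashed lines. Proteasome (27 of 31 lower), complex I (22 of 36) and antioxidant genes (15 of 25) lie at the lower end, Wnt (6 of 14 higher) and unfolded protein response genes (13 of 28) at the upper end, and thermogenic genes have no call.

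Counts of lower respiratory chain subunits differed with the joint offsets for GC content and length and with the WT libraries used. Complex I had 22 of 36 subunits and factors lower and 0 higher. The count was 33 without WT replicate 1, where 22.8% of all genes were lower, and 10 with the offsets, where 20.5% were. The median log2 difference from WT replicates 1, 2 and 3 was -0.16, -0.79 and -0.83. Ndufc1 was at 57.0, 59.9 and 59.4 CPM against 98.0, 148 and 149 CPM (-1.16 ± 0.22, adjusted p = 0.00121). Complexes II to V had 21 of 41 lower and 0 higher, 29 lower without WT replicate 1, and 13 lower and 4 higher with the offsets. Cox7b, of cytochrome c oxidase, was at 239, 249 and 249 CPM against 580, 816 and 695 CPM (-1.50 ± 0.18, adjusted p = 4.89e-05). Of 8 tested mRNAs encoded in the mitochondrial genome, mt-Nd1 alone passed (-0.57 ± 0.13, adjusted p = 0.0035), and it did not with the offsets (adjusted p = 0.0613).

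MIGA2 itself belongs to the proteins of organelle shape and contact. Of 33 tested contact genes 8 were higher and 3 lower, beside 16.5% and 18.9% of all genes. Tmx1, a thioredoxin-like ER protein, was at 152, 157 and 151 CPM against 86.9, 79.3 and 79.2 CPM (0.91 ± 0.09, adjusted p = 1.17e-05). The lipid transfer proteins Osbp (0.60 ± 0.09, adjusted p = 0.000286) and Esyt1 (0.57 ± 0.12, adjusted p = 0.00296) rose, within a role in which 5 of 17 were higher and 0 lower, or 6 and 3 with the offsets. In fusion, fission and transport, 4 of 21 were higher and 3 lower, near the 16.5% and 18.9% of all genes. The higher ones included Miga1 and the kinesin adaptor Trak2 (1.02 ± 0.20, adjusted p = 0.00136). The protease Oma1, which cuts the fusion protein OPA1, was lower by 0.56 ± 0.12 on the log2 scale (adjusted p = 0.00338), as was Mtfr2 (-1.76 ± 0.34, adjusted p = 0.00154). Regulators of mitochondrial biogenesis had 2 of 13 higher and 0 lower, beside 16.5% and 18.9% of all genes. The 2 were Polg and Gabpa, and Polg did not pass with the offsets (adjusted p = 0.399).

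Import and quality control inside mitochondria had 11 of 30 genes lower and 4 higher, beside 18.9% and 16.5% of all genes. Without WT replicate 1 the counts were 16 and 3, where 22.8% of all genes were lower. With the offsets they were 9 and 5, where 20.5% of all genes were lower. The median difference from WT replicates 1, 2 and 3 was -0.004, -0.30 and -0.43. Timm10, a carrier of the intermembrane space, was at 22.97, 25.7 and 24.0 CPM against 38.5, 51.5 and 50.9 CPM (-0.96 ± 0.20, adjusted p = 0.00223). Clpx, the ATPase subunit of the ClpXP protease (-0.56 ± 0.10, adjusted p = 0.00103), the cristae protein Apool (-0.69 ± 0.13, adjusted p = 0.00157) and the chaperone Trap1 (-0.52 ± 0.11, adjusted p = 0.00238) were lower as well.

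The proteasome was the list with the largest share of lower genes. Of 31 tested subunits 27 were lower and 0 higher, 24 with the offsets and 29 without WT replicate 1, and the median differences from WT replicates 1, 2 and 3 were -0.53, -0.91 and -0.79. Psmd14, the deubiquitinase of the lid, was at 59.1, 62.5 and 54.3 CPM against 117, 136 and 128 CPM (-1.11 ± 0.11, adjusted p = 1.55e-05). Psmd1, a base subunit, was at 161, 169 and 162 against 280, 290 and 268 CPM (-0.77 ± 0.09, adjusted p = 3.26e-05), and Psma4, of the core ring, and Psmd11 fell by 0.92 ± 0.11 and 0.67 ± 0.08 (adjusted p = 4.94e-05 and 6.41e-05). In these 4 genes every WT library, replicate 1 included, lay above the labelled ones. The 250 bases before RefSeq starts (GRCm38.p6) were searched for the antioxidant response core TGACNNNGC on either strand. It was in 3 of 24 promoters of the lower subunits (12.5%) and in 11.8% of the promoters of genes tested.

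Ribosomal protein genes are short. Of 72 cytosolic ribosomal proteins 42 were lower, 64 without WT replicate 1 and 26 with the offsets, and the median difference was -0.15, -0.84 and -0.77 from WT replicates 1, 2 and 3. Rpl39 was at 248, 277 and 242 CPM against 537, 778 and 681 CPM (-1.38 ± 0.20, adjusted p = 0.000176). Of 78 mitochondrial ribosomal proteins 44 were lower, 66 without WT replicate 1 and 35 with the offsets, where 2 were higher. Mrpl22 was at 14.9, 12.4 and 11.6 CPM against 32.0, 40.4 and 34.0 CPM (-1.45 ± 0.14, adjusted p = 1.19e-05).

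Of 28 tested genes of the unfolded protein response, which raises folding capacity when the ER is loaded, 13 were higher and 3 lower, and 18 and 1 with the offsets, where 19.6% and 20.5% of all genes were called (40.1% in all). Without WT replicate 1 the counts were 11 and 4. Among the sensors, Ern1 was at 30.2, 32.5 and 33.3 CPM against 12.1, 6.63 and 8.06 CPM (1.84 ± 0.22, adjusted p = 5.97e-05), and Eif2ak3 was at 53.4, 50.5 and 48.5 against 31.7, 24.0 and 24.3 CPM (0.93 ± 0.15, adjusted p = 0.000363). Sel1l, of the complex that exports misfolded proteins, was at 394, 410 and 398 CPM against 227, 162 and 171 CPM (1.10 ± 0.18, adjusted p = 0.000442), and Edem1 rose by 0.67 ± 0.10 (adjusted p = 0.000218). The 4 genes had no labelled library within the WT range. The abundant chaperone Hspa5, named after its value was seen, was higher by 0.39 ± 0.14 (adjusted p = 0.0441) and did not pass without WT replicate 1 (adjusted p = 0.0639). Xbp1, the transcription factor downstream of Ern1 and likewise named after its value was seen, was lower by 0.40 ± 0.11 on the log2 scale (adjusted p = 0.0113).

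Targets of the integrated stress response, which follows phosphorylation of eIF2, had 5 of 30 higher and 7 lower, near the shares over all genes. Mthfd2, of mitochondrial folate metabolism, was at 196, 197 and 193 CPM against 347, 355 and 357 CPM (-0.86 ± 0.16, adjusted p = 0.00102), and Phgdh, of serine synthesis, fell by 1.13 ± 0.21 (adjusted p = 0.00121). Aldh18a1, of proline synthesis, rose by 0.73 ± 0.11 (adjusted p = 0.000264), and Trib3, a pseudokinase that binds AKT, singled out after its values were seen, rose from 39.2, 54.3 and 51.4 to 149, 153 and 152 CPM (1.65 ± 0.48, adjusted p = 0.0169).

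Antioxidant genes were lower in 15 of 25 cases and higher in 1, with a median of -0.66, and 14 and 3 with the offsets. Catalase (Cat), of peroxisomes, was at 205, 203 and 202 CPM against 567, 449 and 436 CPM (-1.25 ± 0.13, adjusted p = 1.83e-05). Gsta3, a glutathione transferase, was at 4.53, 5.42 and 3.62 against 19.1, 22.3 and 28.1 CPM (-2.35 ± 0.24, adjusted p = 1.56e-05), and Nqo1, a quinone reductase, at 11.8, 12.4 and 14.1 against 37.4, 32.0 and 28.3 CPM (-1.35 ± 0.15, adjusted p = 2.66e-05). These 3 groups of values did not overlap. The mitochondrial peroxidase Prdx3 fell by 0.75 ± 0.09 (adjusted p = 5.71e-05).

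Peroxisomal genes gave 8 lower and 4 higher of 34, beside 18.9% and 16.5% of all genes. Beside Cat, the very-long-chain fatty acid importer Abcd2 was at 10.8, 11.6 and 11.1 CPM against 23.7, 25.1 and 21.9 CPM (-1.08 ± 0.14, adjusted p = 9.5e-05), and Pecr fell by 1.26 ± 0.18 (adjusted p = 0.000218). Of 38 lysosomal and autophagy genes 8 were higher and 12 lower, beside 16.5% and 18.9% of all genes. Atp6v0d1, of the proton pump, and Atg12, of autophagosome formation, fell by 0.85 ± 0.14 and 0.66 ± 0.09 (adjusted p = 0.000649 and 0.000146). The autophagy gene Gabarapl1 was lower (-0.46 ± 0.08, adjusted p = 0.00068) but not with the offsets (adjusted p = 0.208).

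Of 20 genes of glucose uptake and glycolysis 4 were higher and 1 lower, beside 16.5% and 18.9% of all genes. Slc16a1, the lactate and pyruvate transporter, was at 134, 136 and 139 CPM against 60.9, 58.1 and 55.4 CPM (1.23 ± 0.12, adjusted p = 7.13e-06). Ldhb, which turns lactate to pyruvate, fell by 0.89 ± 0.16 (adjusted p = 0.000901). Pfkp (0.48 ± 0.09, adjusted p = 0.000891) and Hk1 (0.42 ± 0.12, adjusted p = 0.018) rose but did not pass with the offsets (adjusted p = 0.384 and 0.0589), and Hk1 did not pass without WT replicate 1 either (adjusted p = 0.0564). The insulin-responsive transporter Slc2a4, singled out after its values were seen, was at 361, 338 and 340 CPM against 190, 216 and 223 CPM with no overlap (0.72 ± 0.53, adjusted p = 0.305), and passed in the fit on 6 libraries (adjusted p = 0.0015).

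Insulin and growth factor signalling held 8 higher and 2 lower of 26, beside 16.5% and 18.9% of all genes. Without WT replicate 1 the counts were 14 and 2, where 20.7% of all genes were higher. With the offsets they were 7 and 4, where 19.6% of all genes were higher and 20.5% lower. The median log2 fold change was 0.39, and 0.08 with the offsets. The median difference from WT replicates 1, 2 and 3 was 0.11, 0.48 and 0.57. The receptor Igf1r was at 47.7, 47.4 and 44.1 CPM against 28.5, 19.4 and 18.4 CPM (1.07 ± 0.18, adjusted p = 0.000666), and the kinase Akt2 rose by 0.40 ± 0.08 (adjusted p = 0.00212). The ligand Igf2 was the most secure fall of the list, at 18.8, 17.6 and 21.6 CPM against 96.2, 102 and 98.6 CPM (-2.36 ± 0.14, adjusted p = 2.72e-07). Grb14, an adaptor that restrains the insulin receptor, fell by 0.89 ± 0.15 (adjusted p = 0.000684). Of 9 tested imprinted growth genes, to which Igf2 belongs, 4 were lower (Mest, Igf2 and Ndn among them, Ndn by 1.43 ± 0.16 with an adjusted p of 3.71e-05) and 2 higher (Peg3 by 1.76 ± 0.31 with an adjusted p of 0.000799, and Peg10, the last named after its value was seen).

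Growth hormone signalling had 5 of 16 genes lower and 1 higher, beside 18.9% and 16.5% of all genes. The receptor Ghr was at 410, 426 and 422 CPM against 816, 663 and 711 CPM (-0.80 ± 0.13, adjusted p = 0.000373). Igfbp7 was at 306, 285 and 315 against 683, 882 and 877 CPM (-1.43 ± 0.14, adjusted p = 1.01e-05), Prlr, the prolactin receptor, fell by 1.58 ± 0.29 (adjusted p = 0.00115) and the transducer Stat5a by 0.38 ± 0.09 (adjusted p = 0.00615).

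Glucocorticoid-responsive genes were lower in 9 of 17 cases and higher in 3, with a median of -0.75. Dexamethasone, a glucocorticoid, had left the medium at day 2 in both groups. Fkbp5, a chaperone of the receptor, was at 833, 833 and 819 CPM against 1578, 1605 and 1627 CPM (-0.95 ± 0.13, adjusted p = 9.84e-05). Hsd11b1, which regenerates active glucocorticoid, was at 242, 254 and 246 against 456, 464 and 463 CPM (-0.90 ± 0.11, adjusted p = 7.11e-05). Lipocalin 2 (Lcn2) was at 131, 127 and 116 against 331, 499 and 450 CPM (-1.77 ± 0.22, adjusted p = 6.99e-05), and the phosphatase Dusp1 fell by 1.14 ± 0.13 (adjusted p = 3.84e-05). No labelled library reached the lowest WT library in these 4 genes.

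Retinoid genes were lower in 6 of 14 cases and higher in 2, beside 18.9% and 16.5% of all genes. Aldh1a7, an aldehyde dehydrogenase, was at 183, 181 and 186 CPM against 553, 570 and 521 CPM (-1.58 ± 0.14, adjusted p = 4.52e-06), and the dehydrogenase Adh1 fell by 1.08 ± 0.19 (adjusted p = 0.000915). Dhrs9 rose from 15.4, 7.80 and 7.67 to 30.4, 28.6 and 29.8 CPM (1.52 ± 0.32, adjusted p = 0.00253). Hypoxia-inducible genes were higher in 7 of 17 cases and lower in 2, beside 16.5% and 18.9% of all genes. Pdk1, which inhibits pyruvate dehydrogenase, was at 211, 221 and 205 against 140, 112 and 105 CPM (0.83 ± 0.15, adjusted p = 0.000951). In the fit on 6 libraries the list had 11 higher and 3 lower, where 17.2% and 19.6% of all genes were. Egln1, the oxygen sensor, rose by 0.62 ± 0.14 (adjusted p = 0.00414). Higd1a, of the respiratory chain, fell by 0.78 ± 0.18 (adjusted p = 0.00411).

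Of 56 extracellular matrix genes 15 were lower and 9 higher, beside 18.9% and 16.5% of all genes, and 23 and 9 with the offsets. Col6a1, a chain of the collagen VI net around fat cells, was at 2599, 2494 and 2580 against 4650, 4617 and 4199 CPM (-0.81 ± 0.14, adjusted p = 0.000583). Col6a2, another chain, was at 1926, 1800.0 and 1904 against 3364, 4002 and 4369 CPM (-1.06 ± 0.18, adjusted p = 0.000686). The gelatinase Mmp2 was at 1055, 1008 and 1055 CPM against 2276, 2480 and 2475 CPM (-1.21 ± 0.13, adjusted p = 2.55e-05). Contractile genes gave 7 higher and 2 lower of 20, beside 16.5% and 18.9% of all genes. Markers of skeletal muscle, 4 of 8 at 0, summed to 49.5 to 55.6 CPM in the labelled libraries and 22.5 to 37.2 CPM in WT, and their part in this was not tested. Desmin (Des) made up nearly all of these sums, at 54.1, 51.8 and 48.0 against 21.2, 31.3 and 35.6 CPM. It was called higher (0.81 ± 0.26, adjusted p = 0.0278) but did not pass without WT replicate 1 (adjusted p = 0.087). Besides Acta2 and Lmod1, non-muscle myosin Myh9 was at 288, 264 and 262 against 151, 135 and 166 CPM (0.85 ± 0.16, adjusted p = 0.00136). Actin Actg1 rose by 0.48 ± 0.14 (adjusted p = 0.0197) and did not pass without WT replicate 1 (adjusted p = 0.0543).

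In TGF-beta and BMP signalling, 10 of 26 genes were higher and 5 lower, beside 16.5% and 18.9% of all genes. The ligand Tgfb1 was at 87.3, 83.4 and 89.0 CPM against 30.8, 45.5 and 50.3 CPM (1.04 ± 0.17, adjusted p = 0.000468), and its target Tgfbi rose by 0.73 ± 0.11 (adjusted p = 0.000325). Receptors and effectors were higher in 6 of 13 cases and lower in 0, among them Bmpr2 (1.20 ± 0.22, adjusted p = 0.00112) and Tgfbr1 (1.23 ± 0.29, adjusted p = 0.00473), both singled out after their values were seen. The falls lay among ligands and inhibitors: follistatin (Fst) was lower by 0.94 ± 0.13 on the log2 scale (adjusted p = 0.000179) and Gdf10 was at 0.43, 1.07 and 0.86 against 4.88, 3.41 and 3.49 CPM (-2.31 ± 0.35, adjusted p = 0.000302). In Wnt signalling 6 of 8 tested receptors and targets were higher and 0 of 6 ligands passed. Fzd1 was at 95.1, 97.1 and 96.1 CPM against 66.5, 51.8 and 55.8 CPM (0.73 ± 0.11, adjusted p = 0.000275), and the co-receptor Lrp6 (0.83 ± 0.22, adjusted p = 0.00955) and beta-catenin (Ctnnb1, 0.50 ± 0.14, adjusted p = 0.0144) rose. With the offsets 4 of the 14 Wnt genes were higher and 1 lower.

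Cell cycle genes were lower in 21 of 53 cases and higher in 4, beside 18.9% and 16.5% of all genes. Ccnd1, cyclin D1, was at 63.7, 63.5 and 66.7 CPM against 138, 135 and 140 CPM (-1.09 ± 0.11, adjusted p = 1.01e-05). Myc, which drives growth, was at 28.4, 29.8 and 32.6 against 66.4, 77.4 and 76.5 CPM (-1.28 ± 0.16, adjusted p = 6.72e-05). Cdkn1b, the inhibitor p27, rose from 25.4, 16.4 and 18.4 to 56.5, 54.1 and 55.0 CPM (1.46 ± 0.19, adjusted p = 9.52e-05). The 3 genes had separate groups. Mitotic genes were low in both groups, as in Nusap1 at 1.71, 1.07 and 1.90 against 11.3, 9.16 and 7.28 CPM (-2.58 ± 0.31, adjusted p = 5.2e-05). Of 20 mitotic genes 10 were lower, and 5 in the fit on 6 libraries, where 19.6% of all genes were lower. Of 19 p53 targets 6 were lower and 1 was higher, beside 18.9% and 16.5% of all genes. Cdkn1a, the inhibitor p21, was at 271, 277 and 274 CPM against 456, 530 and 532 CPM (-0.88 ± 0.14, adjusted p = 0.000374), and Gadd45a was the 1 called higher (1.32 ± 0.18, adjusted p = 0.000146). Immediate early genes showed 4 lower and 2 higher of 18, beside 18.9% and 16.5% of all genes, Fosl1 falling by 1.10 ± 0.22 (adjusted p = 0.00204).

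Secreted acute phase genes were lower in 8 of 15 cases and higher in 0, with a median of -0.84. Complement C3 was at 5081, 4936 and 5003 CPM against 9412, 10209 and 9877 CPM (-0.97 ± 0.10, adjusted p = 1.4e-05). Orm3, an orosomucoid, was at 87.5, 92.0 and 88.2 against 257, 423 and 337 CPM (-1.93 ± 0.23, adjusted p = 5.69e-05), and Serpina3n fell by 0.84 ± 0.09 (adjusted p = 2.05e-05). Groups were apart in each, though Orm3 and Serpina3n have close paralogs. The chemokine Cxcl13 was at 3.25, 4.43 and 4.00 CPM against 23.3, 23.2 and 17.9 CPM (-2.46 ± 0.22, adjusted p = 3.84e-05). It is 1 of 14 chemokines and cytokines, of which 3 were higher and 3 lower, beside 16.5% and 18.9% of all genes.

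Of 45 interferon-responsive genes 9 were higher and 7 lower, near the shares of 16.5% and 18.9% over all genes. Usp18, which removes ISG15, was at 1.88, 3.28 and 1.43 against 8.86, 6.24 and 6.31 CPM (-1.67 ± 0.25, adjusted p = 0.000264), and Ifi27l2a, a small membrane protein, fell by 1.84 ± 0.26 (adjusted p = 0.000162). Several of the rises were of genes near the limit of detection. Ifit3b, an RNA-binding effector, was at 0.68, 1.07 and 0.76 CPM against 0, 0.10 and 0 CPM (adjusted p = 0.000144), and Ifit1, chosen after its values were seen like Trim30a, Gbp7 and Rtp4, at 0.51, 0.31 and 0.86 against 0, 0.10 and 0.10 CPM (adjusted p = 0.00204). Trim30a was at 4.78, 3.74 and 4.38 against 1.81, 1.07 and 1.17 CPM (1.66 ± 0.26, adjusted p = 0.000407) and Gbp7 at 2.56, 2.14 and 2.76 against 1.45, 0.19 and 0.19 CPM (1.96 ± 0.67, adjusted p = 0.0347). The fit on 6 libraries tested 11615 genes, Ifit3b not among them, of which 17.2% were higher and 19.6% lower. There 4 interferon-responsive genes were higher and 7 lower. With limma voom, where 18% of all genes were higher and 19.7% lower, the counts were 5 and 7. WT at day 0 had 59.5, 62.7 and 70.2 CPM of Ifit1 and 35.4, 35.2 and 39.7 CPM of Ifit3b. The filter on counts was applied over all 15 libraries. Ifit3b, with 30 counts in the labelled libraries and 1 in WT at day 6, did not pass it on the 6 libraries alone. Its call thus depends on a group outside the comparison and is no firm result.

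Promoters of 4 of the higher genes are shown because they carry the interferon-stimulated response element, a site through which interferon raises transcription. The stretches are the 250 bases before the RefSeq start in GRCm38.p6, written 5′ to 3′ on the strand of the gene, with matches on either strand to GAAA, any 2 bases and GAAA in capitals. They lie at chr19:34640639-34640888 (Ifit1, plus strand), chr19:34607707-34607956 (Ifit3b, plus strand), chr7:104465194-104465443 (Trim30a, minus strand) and chr3:142530086-142530335 (Gbp7, plus strand).
Ifit1: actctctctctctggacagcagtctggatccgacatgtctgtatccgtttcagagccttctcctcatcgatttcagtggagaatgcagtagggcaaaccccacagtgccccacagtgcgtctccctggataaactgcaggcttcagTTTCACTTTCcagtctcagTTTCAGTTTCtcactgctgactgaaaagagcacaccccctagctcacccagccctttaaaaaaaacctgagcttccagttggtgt
Ifit3b: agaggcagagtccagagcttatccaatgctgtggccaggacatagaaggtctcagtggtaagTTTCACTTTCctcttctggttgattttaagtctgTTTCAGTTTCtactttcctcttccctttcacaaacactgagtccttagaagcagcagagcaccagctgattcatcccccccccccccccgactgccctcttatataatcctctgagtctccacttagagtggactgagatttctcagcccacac
Trim30a: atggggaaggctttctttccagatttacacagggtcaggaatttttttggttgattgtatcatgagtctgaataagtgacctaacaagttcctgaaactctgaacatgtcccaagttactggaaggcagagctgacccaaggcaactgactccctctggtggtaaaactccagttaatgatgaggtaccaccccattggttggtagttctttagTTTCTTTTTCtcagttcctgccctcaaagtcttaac
Gbp7: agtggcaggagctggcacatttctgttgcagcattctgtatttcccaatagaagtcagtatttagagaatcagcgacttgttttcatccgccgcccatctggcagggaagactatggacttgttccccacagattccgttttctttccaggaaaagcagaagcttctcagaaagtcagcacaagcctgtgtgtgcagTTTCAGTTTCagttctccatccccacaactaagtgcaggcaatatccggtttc

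Of the interferon-responsive genes with an entry in the promoter table, 5 of 8 higher, 0 of 2 lower and 10 of 23 not called held the letters. The same letters were in 2.98% of all 32851 promoters and in 2.66% of those of genes tested. Counted by gene, 306 of 9486 tested genes with an entry held them. Usp18, Ifi27l2a and Rtp4 have no entry. A match is a description of these letters and not a site shown to be used, and matches were present in called and uncalled genes alike.

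Of 15 antigen presentation genes 5 were higher and 0 lower, beside 16.5% and 18.9% of all genes. H2-D1, a class I heavy chain, was at 1084, 1059 and 1088 CPM against 565, 726 and 814 CPM (0.62 ± 0.16, adjusted p = 0.00843). Tapbp, which loads peptides onto class I, was at 590, 562 and 560 against 266, 370 and 408 CPM (0.71 ± 0.15, adjusted p = 0.00242), and the peptide transporter Tap1 rose by 0.59 ± 0.12 (adjusted p = 0.00204). H2-Q4 rose by 1.57 ± 0.46 (adjusted p = 0.0172), and shares much sequence with other class I genes. Groups did not overlap in these 4 genes. Without WT replicate 1 the list had 4 higher and 2 lower.

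Thermogenic genes of brown or beige fat had 0 of 12 called by edgeR on 15 libraries, beside 16.5% of all genes higher and 18.9% lower. At an unadjusted p under 0.05, 2 were higher and 1 lower. Over all genes, 5586 of 12271 had an unadjusted p under 0.05 in the same fit without mitochondrially encoded genes. In the fit on 6 libraries 4 were higher and 1 lower, where 17.2% and 19.6% of all genes were. With limma voom the counts were 3 and 0, where 18% of all genes were higher and 19.7% lower. The potassium channel Kcnk3 was at 164, 159 and 165 CPM against 91.1, 127 and 129 CPM (0.49 ± 0.19, adjusted p = 0.059). It passed in the fit on 6 libraries (adjusted p = 0.0272) and with limma voom (adjusted p = 0.00811). Ucp2 was at 278, 271 and 262 against 206, 244 and 254 CPM (0.21 ± 0.12, adjusted p = 0.188) and passed in neither. Both had all labelled libraries above all WT libraries.

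Markers of other cell types were sparse in all 6 libraries. Summed CPM was 23.6 to 34.2 for 9 macrophage markers, 0.72 to 1.68 for 6 endothelial markers, 22.5 to 55.6 for 8 muscle markers and 1.68 to 3.05 for 6 neuronal markers. Of these, 2 macrophage, 1 endothelial, 4 muscle and 3 neuronal genes had no count in any of the 6 libraries. Osteoblast markers summed to 73.6 to 78.3 CPM in the labelled libraries and 47.3 to 53.9 CPM in WT, with Runx2 higher (1.02 ± 0.20, adjusted p = 0.00165). Markers of epithelium and mesothelium were lower, at 33.9 to 39.8 against 67.5 to 87.2 CPM, and 3 of 5 tested were called: Upk3b (-4.26 ± 0.39, adjusted p = 5.92e-06), Krt8 (-2.29 ± 0.63, adjusted p = 0.0123) and Msln (adjusted p = 8.96e-05). Msln was at 28.1, 25.2 and 26.9 CPM against 49.9, 57.1 and 53.2 CPM, and WT at day 0 held 4.39 to 6.22 CPM over the whole list. The part of such cells in the falls of Upk2 and of other genes was not tested.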

How the data were processed

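RNA was sequenced from 15 libraries of 3T3-L1 cells (5 groups of 3), made with a strand-specific TruSeq kit per the labels. The tools named in the submitters' processing notes are bcl2fastq 2.19, Trimmomatic, STAR 2.5.4b, featureCounts and edgeR, with the build GRCm38.p5. Neither the strand setting nor the treatment of multiply aligned reads is given in these sources. The deposited values are raw counts for 25700 Ensembl genes, with no normalization by the authors in the files. Symbols and positions come from GENCODE vM21 (GRCm38).

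Counts were fitted in R 4.3.3 with edgeR 4.0.16: filterByExpr (minimum count 10, minimum total 15), TMM scaling, 1 term per group over all 15 libraries, quasi-likelihood F test of MIGA2-GFP against WT at day 6, two-sided, Benjamini-Hochberg adjustment over the 12279 genes tested, threshold 0.05. Each ± beside a log2 fold change is an SE, its size over the root of F. CPM values are scaled by TMM. Differences to single WT libraries use a pseudocount of 0.5 CPM. The alternatives were other scalings, filters and libraries in the fit, offsets for GC content and transcript length (splines with 4 degrees of freedom), limma voom (limma 3.58.1), DESeq2 1.42.0, a test against a 1.5-fold change, the replicate number as a block, and leaving out each library. The fit was tested on simulated data drawn with 1 common spread for all libraries and no length trend. It therefore does not cover the unequal spread of the groups here (2.95% and 21.2%) or the trend with length. Intervals and floors cover counting error only.

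By rule, the text names the mitoguardins, the 12 largest rises and falls (adjusted p under 0.05 with and without WT replicate 1, groups apart, at least 5 CPM in each library of the higher group), the genes of highest level, and up to 4 members with the smallest adjusted p from each of 54 gene lists. Members and lists were chosen with earlier results of these data known. Genes named outside the rule are said to be so. A few genes that the rule names are not reported here.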

Additional observations from a re-analysis of the deposited data

How the results depend on the processing

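None of the genes named by rule that passed the test changed sign under an alternative. For genes named outside it, the 4 alternatives compared (without WT replicate 1, the offsets, limma voom and 6 libraries) changed no sign of a gene that passed. Among genes that had not passed, Dgat1 was 0.10 with the offsets and Dgat2 -0.02 without WT replicate 1. The counts of genes higher and lower (2020 and 2318) stayed within 1.5 times under other scalings, filters, tools and offsets. A test against a 1.5-fold change left 199 higher and 384 lower. Leaving out 1 library at a time gave 1169 to 2581 higher and 1590 to 2838 lower. Of these, the count of genes higher moved by over 1.5 times without WT replicate 2 (1169) and without MIGA2-GFP replicate 2 (1342). In the fit on the 6 libraries compared without WT replicate 1, an alternative chosen after seeing the data, 3669 genes were higher and 3755 lower. Of the 4338 genes called, 3527 were called the same way with offsets for GC content and length, and 25 had the opposite sign. The replicate numbers did not pair the samples: deviations from the group means correlated at -0.04, 0.02 and 0.05 for the same number. With the replicate block, 1727 genes were higher and 2006 lower on 15 libraries, and 1826 and 1878 on 6. Genes near or below 1 CPM, such as Ifit1, Ifit3b and Fgf21, rest on few counts per library and are the least precise.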

Other observations

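The shares of genes called differed between chromosomes. On chromosome 5, 215 of 796 tested genes were higher (27%) and 87 lower (10.9%), with a median log2 fold change of 0.18. On chromosome 8, 63 of 675 were higher (9.33%) and 181 lower (26.8%), with a median of -0.20. Chromosomes 18 (20.5% higher, 11.4% lower) and 7 (18.2% and 11.6%) leaned upward, and chromosomes 4 (11.5% and 24.1%), 9 (11.3% and 23.2%), 11 (12.3% and 22.1%), 12 (13.2% and 26%), 13 (14.8% and 21.6%) and X (15.2% and 26.6%) leaned downward. These shares are given as counts, with no test.

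In the first 2 principal components of the 9 day 6 libraries (63.1% and 20.3% of the variance), the labelled libraries lay at -21.9 to -22.3 on the first, beside WT replicate 1 at -28.0 and apart from WT replicates 2 and 3 at -55.6 and -58.9. On the second they lay at -36.9 to -38.2, away from WT (18.6 to 37.6) and MIGA2-KO (-9.59 to 15.9).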
